A study of Homo sapiens with 4 samples.

Results

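The genes described here encode the 26S proteasome, and were taken by name as the rows of the deposited gene count table for 36 listed members out of 61541 gene identifiers. The list holds 7 alpha ring, 4 beta ring, 6 base ATPase, 4 base non-ATPase and 8 lid genes, together with 3 chaperones of base assembly and 4 of core assembly. All 36 members were found under a single identifier each, and all 36 were among the 16863 genes that passed the filter on low counts. The libraries are bulk RNA-seq of MHCC97H, a human hepatocellular carcinoma cell line, with 2 shCon control libraries and 2 shUBXN1 libraries. The shCon cells carried a control shRNA, called shRFP in the study's methods, and the shUBXN1 cells an shRNA against UBXN1, an adaptor protein that binds ubiquitin and the segregase VCP. According to the study's methods the hairpins were delivered in the lentiviral vector pLKO.1, and which UBXN1 hairpin the libraries carried is not given in the sources used here. Neither a time after infection nor separate cultures are given in these sources, so the p-values measure the spread between these libraries, which may be technical. The comparison asks how the transcripts of each proteasome subcomplex differed when UBXN1 was knocked down.

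The proteasome degrades ubiquitin-tagged proteins. Its core particle is a stack of alpha and beta rings, in which the alpha rings gate the entrance and the beta rings hold the proteolytic sites. A regulatory particle caps the core: its base carries a ring of ATPases that unfold substrates and pull them in, along with scaffold proteins and ubiquitin receptors, and its lid holds the deubiquitinase that removes the ubiquitin chain. Assembly depends on dedicated chaperones that leave or are degraded once the particle is complete. When proteasome activity is limiting, the transcription factor NFE2L1 (also called NRF1) can raise subunit genes together through antioxidant response elements in their promoters.

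UBXN1 itself checked the labels. Its level was 67.1 and 77.3 CPM (counts scaled to the effective size of each library) in the shCon libraries and 16.8 and 18.5 CPM in the shUBXN1 libraries. The shUBXN1 mean was 24.5% of the control mean, a log2 fold change of -2.03 (SE 0.0963, n = 2 libraries a group, adjusted p = 9.98e-10 in edgeR's quasi-likelihood test). Library totals ran from 23373700 to 27380508 counts. The change reached far beyond the proteasome: 28.2% of all genes tested were lower and 28% higher in shUBXN1 at an adjusted p under 0.05. Of the 10 hepatocyte markers checked, 6 were called lower and 2 higher, with a median log2 fold change of -1.20. FGB (-4.02), TTR (-3.08), ALB (-1.97), TF (-1.96), APOB (-1.85) and KRT8 (-0.44) were called lower, and SERPINA1 (0.40) and KRT18 (0.31) higher. ALB stood at 17.2 to 18.0 CPM in shCon and 4.20 to 4.78 CPM in shUBXN1, and APOA1 was under 1 CPM in every library. The leukocyte marker CD3E was at 0 in all 4 libraries, and PTPRC, CDH5, COL1A2 and PDGFRB stayed between 0 and 0.444 CPM. By TPM, which divides each count by the gene's length before scaling, the 10 hepatocyte markers summed to 5385 and 5433 in shCon and 4619 and 5034 in shUBXN1 (sums made up almost wholly of KRT8 and KRT18), CD68, the 1 leukocyte marker tested, came to 98.4 and 102 against 92.7 and 83.2, the 2 tested endothelial markers, PECAM1 and VWF, to 10.1 and 9.78 against 14.0 and 12.6, and COL1A1, the 1 fibroblast marker tested, to 0.129 and 0.0569 against 0.859 and 0.858. The part of these markers in the proteasome results was not tested.

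The promoters of 4 members are shown because these genes had the largest changes in their groups: ADRM1, PSMA1 and PSMC6 fell the most among the base non-ATPase, alpha ring and base ATPase genes, and PSMD2 was the single member called higher. Each line gives sequence from the 250 bases before the RefSeq transcription start on GRCh38.p14, read 5′ to 3′ on the gene's strand. Any base that lies in an exon of the GENCODE annotation was left off. The stretches of PSMA1, PSMD2 and PSMC6 therefore end 60, 44 and 23 bases before the start, and that of ADRM1 reaches it. Those of ADRM1 and PSMA1 lie inside the wider GENCODE spans of these genes. Capitals mark matches on either strand to the antioxidant response element core (TGACNNNGC), the CCAAT box (CCAAT), an ETS motif (CCGGAAG) or the GC box (GGGCGG).
ADRM1, chr20:62302646-62302895, plus strand: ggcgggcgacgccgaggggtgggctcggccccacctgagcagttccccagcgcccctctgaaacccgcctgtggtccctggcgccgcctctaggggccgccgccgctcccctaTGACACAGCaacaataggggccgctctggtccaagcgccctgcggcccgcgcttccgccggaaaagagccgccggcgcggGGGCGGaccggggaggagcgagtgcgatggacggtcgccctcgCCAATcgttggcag
PSMA1, chr11:14520446-14520636, minus strand: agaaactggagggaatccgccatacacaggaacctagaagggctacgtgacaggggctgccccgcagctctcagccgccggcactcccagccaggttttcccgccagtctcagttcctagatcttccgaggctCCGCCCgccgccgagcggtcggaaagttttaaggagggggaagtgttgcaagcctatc
PSMC6, chr14:52706950-52707177, plus strand: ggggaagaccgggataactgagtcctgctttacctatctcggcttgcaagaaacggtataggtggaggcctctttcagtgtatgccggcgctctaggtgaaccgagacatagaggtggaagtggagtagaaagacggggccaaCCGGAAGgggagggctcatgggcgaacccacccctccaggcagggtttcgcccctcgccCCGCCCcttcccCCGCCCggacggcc
PSMD2, chr3:184298991-184299197, plus strand: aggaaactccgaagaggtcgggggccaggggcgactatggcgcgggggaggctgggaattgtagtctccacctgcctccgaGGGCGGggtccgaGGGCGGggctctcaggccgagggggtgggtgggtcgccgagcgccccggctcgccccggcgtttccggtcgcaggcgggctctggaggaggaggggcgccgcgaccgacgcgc

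The ADRM1 window held an antioxidant response element core 137 bases before the start, a GC box at 57 bases and a CCAAT box at 14 bases. PSMA1 held a single GC box at 117 bases, read on the opposite strand, and neither PSMA1 nor PSMC6 nor PSMD2 matched the antioxidant response element core. PSMC6 held an ETS motif at 107 bases and 2 GC boxes, and the stretch shown of PSMD2 held 2 GC boxes. Over the 250 bases before the start, 32 of the 36 members had an entry in the RefSeq table, and PSMA7, PSMB1, PSMD4 and PSMG3 had none. The antioxidant response element core was in 8 of the 32 (25%), against 11.1% of all 27305 windows of that length. The ETS motif was also in 8 members, against 8.78% of all windows, and the CCAAT box was in 15 members (46.9%), against 33% of all windows. GC boxes were the most frequent, in 22 members (68.8%) against 42.2% of all windows. Of the 8 members with the antioxidant response element core, 6 were among the 21 searched members called lower (PSMB3, ADRM1, PSMD3, PSMD12, PSMG1 and PSMG2) and 2 among the other 11 (PSMD5 and PSMD9). The CCAAT box was in 12 of the 21 and 3 of the 11, the GC box in 16 and 6, and the ETS motif in 3 of the 21 and 5 of the 11. A match is a description of the letters in the window and does not show that a factor binds there.

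Most proteasome genes were modestly lower in the UBXN1-knockdown libraries. At an adjusted p under 0.05, 23 of the 36 members were called lower (63.9%), 1 was called higher and 12 were not called. The background was high: 28.2% of all genes tested were called lower, and among the 6252 genes with a mean log2 CPM of at least 5, a range that holds all 36 members, 42.2% were. The median log2 fold change of the members was -0.26, against 0.016 for all genes tested and -0.10 for the genes of at least 5 log2 CPM. Of the members, 32 had a log2 fold change below 0 (88.9%), against 58.8% of the genes in that expression range. The groups did not overlap in CPM for 28 members that were lower and 2 that were higher in shUBXN1, whereas 38.6% and 39.4% of all genes separated in those directions. In these bulk libraries, fewer cells expressing a transcript and less transcript per cell cannot be told apart.

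The changes were small in size. No member passed the thresholds stated in the study's methods, an unadjusted p under 0.05 with at least a 2-fold change, which 17.9% of all genes tested passed in edgeR. At an unadjusted p under 0.05 alone, 25 members passed in edgeR. Such a p was common, since even after adjustment 28.2% of all genes tested were called lower and 28% higher. DESeq2 and limma-voom also found 0 members past both thresholds. With the trend in GC content removed, ADRM1 passed them, at a log2 fold change of -1.07. The count of members called lower moved with the libraries used. It was 14 (38.9%) without shCon replicate 2, where 20.9% of all genes tested were called lower, 18 (50%) without shCon replicate 1 (22.1% of all genes), 21 (58.3%) without shUBXN1 replicate 1 (26.9%) and 28 (77.8%) without shUBXN1 replicate 2 (28.7%). Direction was steadier than the calls, since 28 members stayed below 0 under every alternative setting. With 2 libraries against 2, an exact two-sided permutation test of a single gene cannot go below p = 0.333, so the calls rest on the spread shared across genes in the fit.

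**Figure D1:**
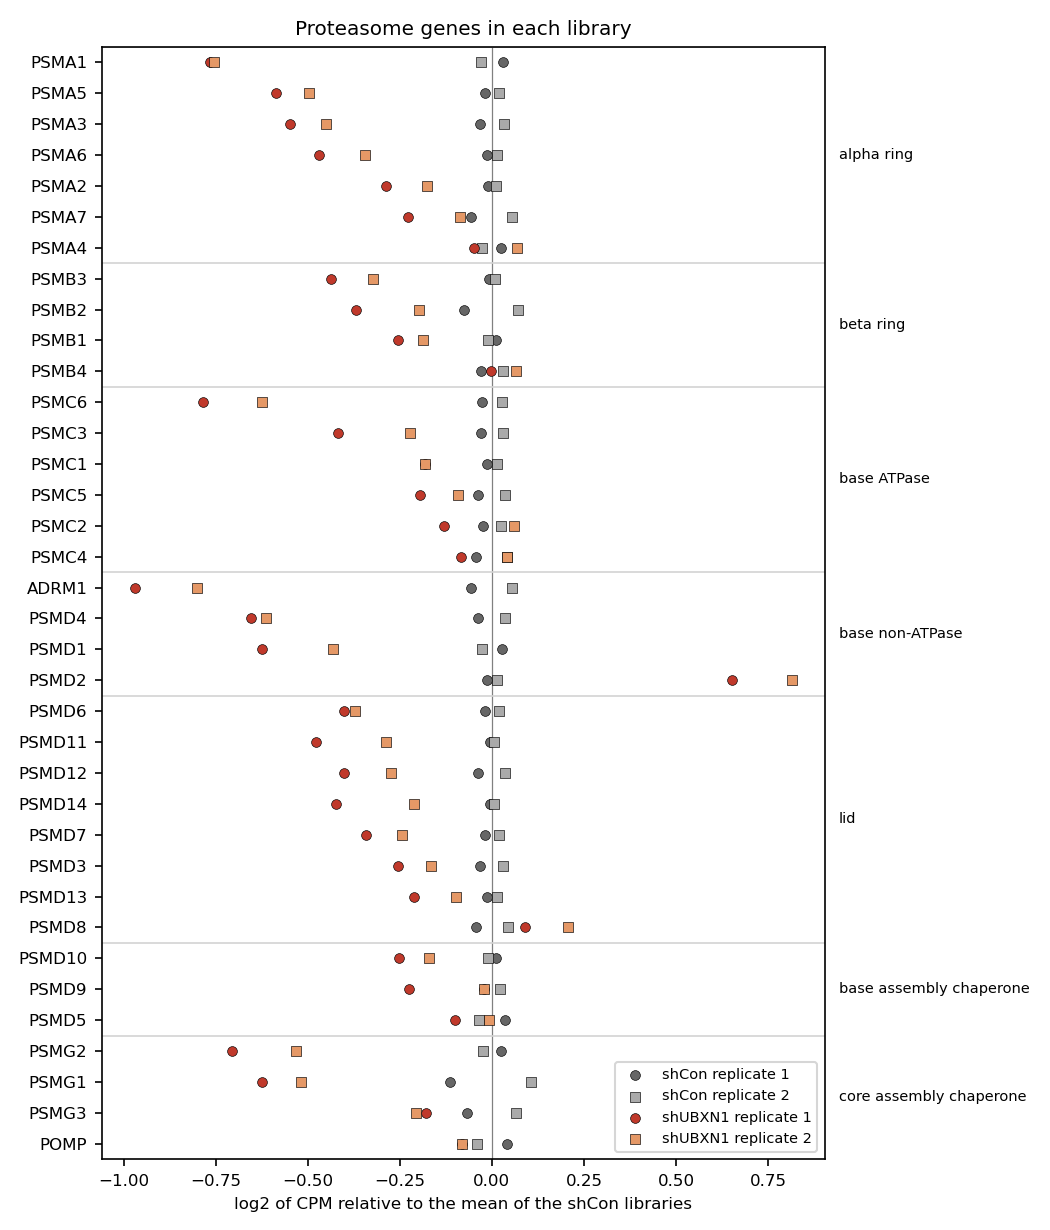
Level of each proteasome gene in each library, as the log2 of its CPM relative to the mean of the shCon libraries, with genes grouped by subcomplex on the vertical axis. Grey symbols are the 2 shCon libraries and coloured symbols the 2 shUBXN1 libraries. Most coloured symbols lie to the left of the grey ones, whereas those of PSMD2 lie far to the right.

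The alpha ring had the lowest median among the rings, base and lid, although the 4 base non-ATPase genes taken alone had a lower one (-0.58). With the GC trend removed the medians were closer, at -0.34 for the alpha ring and -0.30 for the base. Of the 7 alpha ring genes, 5 were called lower (71.4%) and 2 were not called, with a median log2 fold change of -0.41. Of all genes of at least 5 log2 CPM, 42.2% were called lower. Under total count scaling the alpha ring share was 57.1%, against 23.5% of all genes tested. PSMA1 fell the most, from 198 and 190 CPM in shCon to 114 and 115 CPM in shUBXN1. Both knockdown libraries lay far below both control libraries, and the log2 fold change was -0.76 (SE 0.0722, adjusted p = 7.18e-07). PSMA5 fell by 0.54 (adjusted p = 2.13e-05), PSMA3 by 0.50 (adjusted p = 6.01e-05), PSMA6 by 0.41 (adjusted p = 3.48e-04) and PSMA2 by 0.23 (adjusted p = 0.0195) on the log2 scale. PSMA2 was not called with the GC trend removed (log2 fold change -0.18) or under total count scaling (-0.15). It also lost its call in some fits that left out a library. PSMA4 stood at the other end, with 199 and 192 CPM in shCon and 189 and 205 CPM in shUBXN1. Its groups overlapped, and its log2 fold change was 0.0076 (SE 0.075, adjusted p = 0.939). PSMA7, the most abundant alpha gene per length, was lower in both knockdown libraries without passing the test (log2 fold change -0.15, adjusted p = 0.11). The log2 fold changes of the alpha ring genes spanned 0.77, although each protein is present in equal copies in the ring.

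In the beta ring, 3 of the 4 listed genes were called lower and 1 was not called, with a median log2 fold change of -0.25. These genes encode subunits without proteolytic activity that alternate with or flank the catalytic ones in the ring. PSMB3 went from 102 and 103 CPM to 75.7 and 81.9 CPM, a log2 fold change of -0.38 (SE 0.0745, adjusted p = 5.56e-04). PSMB2 fell by 0.28 (adjusted p = 0.00991) and PSMB1 by 0.22 (adjusted p = 0.0181) on the log2 scale. PSMB4 had 301 and 314 CPM in shCon and 307 and 322 CPM in shUBXN1. Its groups overlapped and its log2 fold change was 0.031 (SE 0.0746, adjusted p = 0.746). Without shCon replicate 2, PSMB1 (log2 fold change -0.25) and PSMB2 (-0.22) were not called. PSMB1 was also not called without shCon replicate 1, with the GC trend removed or under total count scaling. With all 4 libraries 75% of the listed beta ring genes were called lower, against 42.2% of all genes of at least 5 log2 CPM. Under total count scaling the share was 50%, against 23.5% of all genes tested. Without shCon replicate 2, the beta ring share lay near that of all genes tested. PSMB4 was also the most abundant member per length, at a mean of 672 TPM in shCon and 716 TPM in shUBXN1.

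The base held both the largest fall and the only called rise. Of its 10 genes, 6 were called lower (60%, against 42.2% of all genes of at least 5 log2 CPM), 1 was called higher and 3 were not called. The median log2 fold change of the base was -0.25. Among the 6 ATPases, PSMC6 went from 76.3 and 79.2 CPM to 45.1 and 50.4 CPM, a log2 fold change of -0.70 (SE 0.0804, adjusted p = 4.38e-06). The shUBXN1 mean was 61.4% of the control mean. PSMC3 fell by 0.32 (adjusted p = 0.00391) and PSMC1 by 0.19 (adjusted p = 0.0362) on the log2 scale. The other ATPases were not called. PSMC4 had 169 and 179 CPM in shCon and 164 and 179 CPM in shUBXN1, which overlap (log2 fold change -0.020, adjusted p = 0.839). PSMC2 had a log2 fold change of -0.033 (adjusted p = 0.753) and PSMC5 of -0.14 (adjusted p = 0.116). Without shCon replicate 2, PSMC1 (log2 fold change -0.19) and PSMC3 (-0.30) were not called. With all 4 libraries 50% of the ATPases were called lower, against 42.2% of all genes of at least 5 log2 CPM. DESeq2 called 33.3% of the ATPases lower, against 24.4% of all genes tested. Without shCon replicate 2, the share of ATPases called lower was not above that of all genes tested. The products of these genes form a single hetero-hexamer, yet their log2 fold changes spanned 0.68.

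The 4 base non-ATPase genes were all called, 3 of them lower and 1 higher, with a median log2 fold change of -0.58. Of all genes tested, 28.2% were called lower and 28% higher, and 42.2% of those of at least 5 log2 CPM were called lower. ADRM1, the ubiquitin receptor that also recruits the deubiquitinase UCHL5, had 161 and 174 CPM in shCon and 85.5 and 96.2 CPM in shUBXN1. Its log2 fold change of -0.88 was the largest fall of the 36 members (SE 0.0812, adjusted p = 5.28e-07). PSMD4, another ubiquitin receptor of the base, fell by 0.64 (adjusted p = 5.60e-06), and PSMD1, the scaffold on which ADRM1 docks, fell by 0.52 (adjusted p = 7.18e-05) on the log2 scale. PSMD2, the scaffold that binds ubiquitin shuttle factors, went the other way. It had 349 and 356 CPM in shCon and 554 and 620 CPM in shUBXN1, a rise to 166% of the control mean (log2 fold change 0.73, SE 0.0813, adjusted p = 3.21e-06). PSMD2 rose and PSMD1, ADRM1 and PSMD4 fell under every alternative setting.

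**Figure D2:**
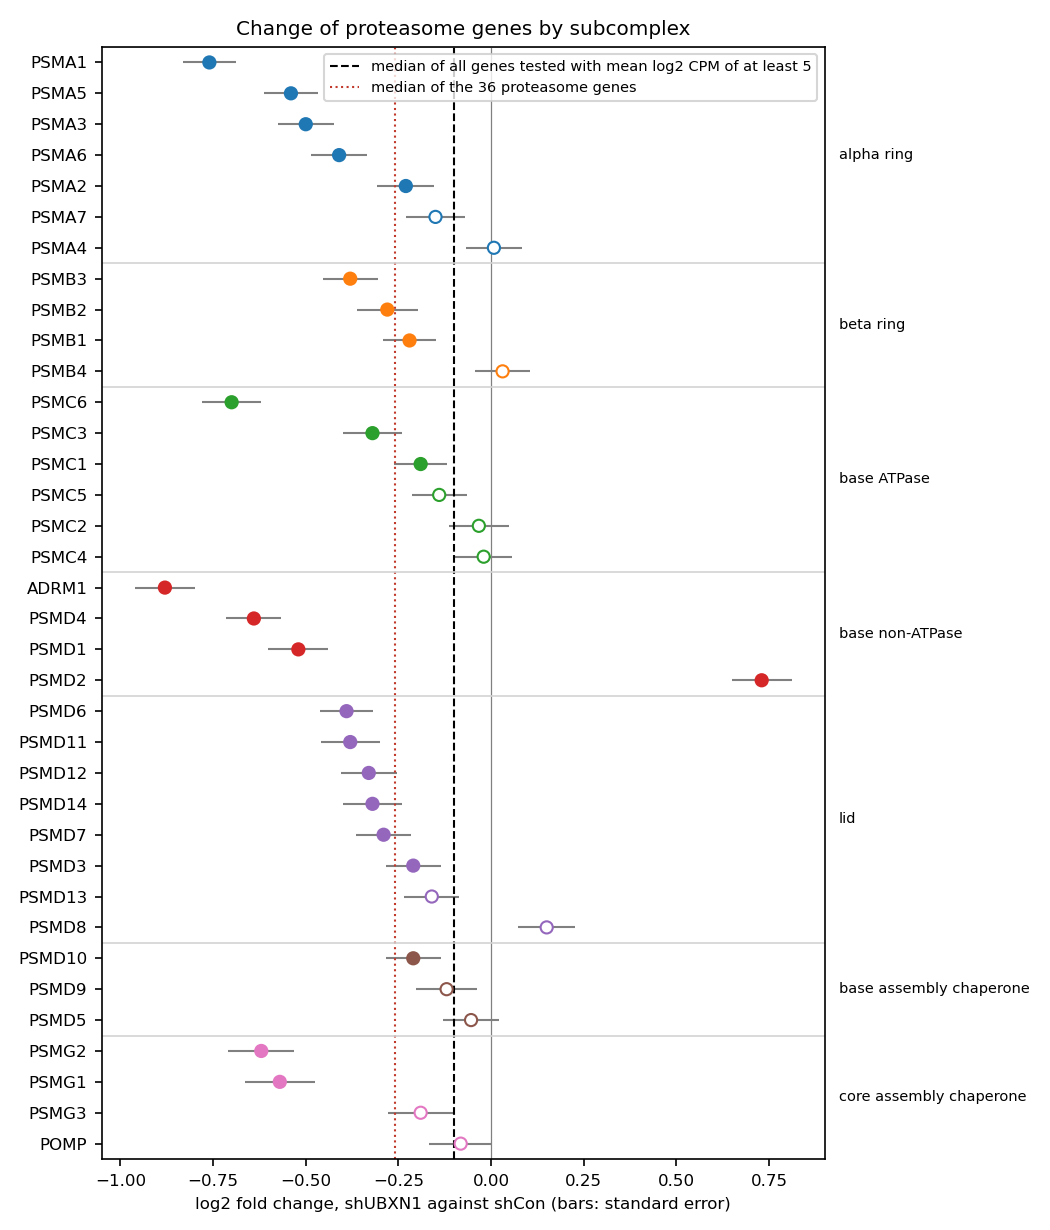
The log2 fold change of each proteasome gene, shUBXN1 against shCon, by subcomplex; horizontal bars are standard errors (n = 2 libraries a group). Filled symbols passed an adjusted p under 0.05 and open symbols did not. The dotted line is the median of the 36 members (-0.26) and the dashed line that of all genes tested with at least 5 log2 CPM (-0.10), and ADRM1 and PSMD2 mark the ends of the range.

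In the lid, log2 fold changes ran from -0.39 to 0.15. Of its 8 genes, 6 were called lower and 2 were not called, with a median log2 fold change of -0.30. PSMD6 fell the most, from 116 and 119 CPM to 88.9 and 90.8 CPM (log2 fold change -0.39, SE 0.0714, adjusted p = 3.52e-04). PSMD11 fell by 0.38 (adjusted p = 0.00107), PSMD12 by 0.33 (adjusted p = 0.00189), PSMD7 by 0.29 (adjusted p = 0.00381) and PSMD3 by 0.21 (adjusted p = 0.0263) on the log2 scale. PSMD14, the deubiquitinase of the lid, fell by 0.32 (adjusted p = 0.00404). PSMD13 was lower in both knockdown libraries without passing the test (log2 fold change -0.16, adjusted p = 0.0871). PSMD8 had 195 and 207 CPM in shCon and 214 and 232 CPM in shUBXN1. Its groups did not overlap, but the log2 fold change of 0.15 missed the threshold (adjusted p = 0.108). Under total count scaling PSMD8 was called higher. Without shCon replicate 2, PSMD3 (log2 fold change -0.19), PSMD7 (-0.29) and PSMD12 (-0.32) were not called. With all 4 libraries 75% of the lid genes were called lower, against 42.2% of all genes of at least 5 log2 CPM. Under total count scaling the share was 62.5%, against 23.5% of all genes tested. Without shCon replicate 2, the lid share came closer to that of all genes tested.

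Of the 7 assembly chaperones, 3 were called lower (42.9%) and 4 were not called. This share lay near that of all genes of at least 5 log2 CPM, of which 42.2% were called lower. PSMG2, which pairs with PSMG1 to build the alpha ring, went from 45.0 and 43.5 CPM to 27.1 and 30.6 CPM (log2 fold change -0.62, SE 0.0889, adjusted p = 3.98e-05). PSMG1 itself fell by 0.57 on the log2 scale (adjusted p = 1.37e-04). PSMG3 had a log2 fold change of -0.19 (adjusted p = 0.0814). POMP, which guides beta subunits onto the alpha ring, had 35.0 and 33.1 CPM in shCon and 32.2 and 32.2 CPM in shUBXN1, a log2 fold change of -0.082 (adjusted p = 0.438). Among the chaperones of the base, PSMD10 (gankyrin) had 73.1 and 72.1 CPM in shCon and 61.0 and 64.5 CPM in shUBXN1 (log2 fold change -0.21, adjusted p = 0.0261), a call that was lost in 3 of the 4 fits that left out a library. PSMD5 overlapped between groups, with 76.3 and 72.6 CPM against 69.4 and 74.1 CPM (log2 fold change -0.054, adjusted p = 0.569), and PSMD9 had a log2 fold change of -0.12 (adjusted p = 0.231).

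Levels were also compared per gene length, as TPM from the deposited counts and lengths. Summed over the 36 members, the level was 6413 and 6421 TPM in shCon and 5712 and 5722 TPM in shUBXN1, or 89.1% of the control mean. The alpha ring sum was 1425 and 1417 TPM against 1145 and 1143 TPM, 80.5% of the control mean. For the beta ring genes it was 1276 and 1269 TPM against 1235 and 1214 TPM, 96.2% of the control mean, a sum dominated by PSMB4. The base gave 2024 and 2051 TPM against 1811 and 1840 TPM (89.6%), and the lid 1225 and 1227 TPM against 1120 and 1130 TPM (91.8%). None of these 4 sums overlapped between groups. Separation was common, since 38.6% of all genes tested separated lower in CPM and 39.4% higher. The differences between the subcomplexes were not tested, since each holds few genes of mixed direction.

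The structural subunits of the particle differed widely in transcript level. In the shCon libraries the most abundant of the 29 structural subunit genes exceeded the least abundant by 14.5 and 14.4 times in TPM, and in the shUBXN1 libraries by 19.0 and 18.2 times. The SD of log2 TPM over these genes was 0.979 and 0.982 in shCon and 1.06 and 1.05 in shUBXN1, so the levels were more spread in both knockdown libraries. PSMD2 moved from rank 10 of the 36 members in shCon to rank 2 in shUBXN1, PSMA1 from 4 to 11 and ADRM1 from 9 to 16. The ratio of PSMD2 to PSMD1, the paired scaffolds of the base, was 2.47 and 2.62 in shCon and 6.16 and 6.01 in shUBXN1. The ratio of ADRM1 to PSMD2 was 0.971 and 1.03 in shCon and 0.326 and 0.328 in shUBXN1. Within the alpha ring, the ratio of PSMA1 to PSMA4 was 3.44 and 3.42 in shCon and 2.09 and 1.95 in shUBXN1. The lowest member was PSMD5, with means of 44.2 TPM in shCon and 44.3 TPM in shUBXN1.

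**Figure D3:**
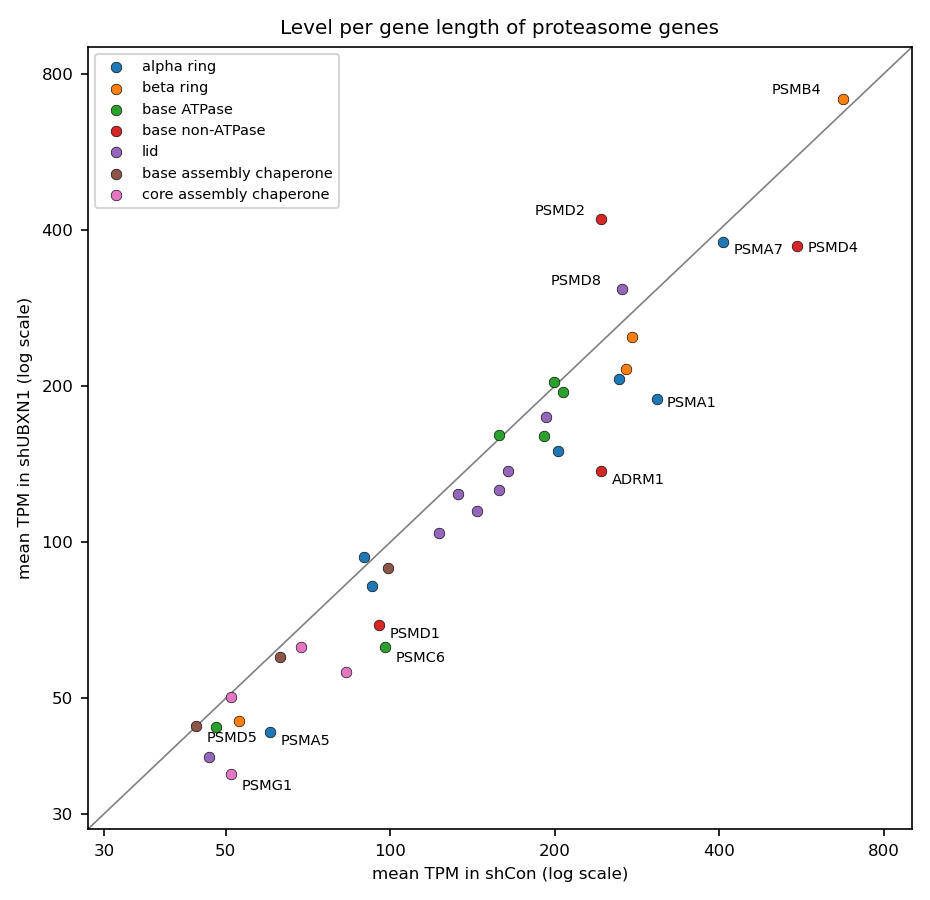
Mean TPM of each proteasome gene in shCon (horizontal) and shUBXN1 (vertical), both on log scales, with colours by subcomplex and the grey line marking equal levels. Most points lie below the line; PSMD2 (243 to 420 TPM) and PSMD8 (265 to 307 TPM) lie above it, and ADRM1 (243 to 137 TPM) lies furthest below.

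Genes that work with the proteasome but are not among the 36 members had calls in both directions, more of them lower than higher. Of 36 such genes described here, 34 were tested, with 13 called lower (38.2%, against 28.2% of all genes tested) and 7 higher (20.6%, against 28%). Of all genes of at least 5 log2 CPM, 42.2% were called lower. PSMB11 and DDI1 were at 0 in all 4 libraries. Of the 3 catalytic beta subunits, PSMB5 fell by 0.42 and PSMB6 by 0.24 on the log2 scale, and PSMB7 had a log2 fold change of 0.00023 (adjusted p = 0.998). The immunoproteasome subunits PSMB8 (0.14), PSMB9 (0.40) and PSMB10 (-0.17) were not called. PSMA8, a testis alpha subunit, fell by 1.62 on the log2 scale, from a low level of 6.15 and 6.60 CPM to 2.22 and 1.92 CPM. The small lid subunit SEM1 fell by 0.24 and the chaperone PSMG4 by 0.51 on the same scale. Among activators and the inhibitor, PSMF1 fell by 0.40, ECPAS by 0.24 and PSME3 by 0.21, whereas PSME2 rose by 0.30.

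Among genes that handle ubiquitin at the particle, 2 of 3 bound enzymes (66.7%) and 1 of 5 shuttle factors tested (20%) were called lower. The share was 28.2% of all genes tested and 42.2% of those of at least 5 log2 CPM. Both lists are small, and their differences from these shares were not tested. UCHL5, the deubiquitinase that docks on ADRM1, fell by 0.55 (adjusted p = 3.18e-05), and the ligase UBE3C fell by 0.27, while USP14 had a log2 fold change of -0.20 (adjusted p = 0.0566). Of the shuttle factors, UBQLN1 fell by 0.70 on the log2 scale, and 4 were not called. Among ubiquitin precursors, the ribosomal fusion gene RPS27A fell by 0.37 and UBB rose by 0.22. UBA1, the main ubiquitin-activating enzyme, rose by 0.22.

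Of the 6 regulators of proteasome gene transcription, 4 were called higher (66.7%, against 28% of all genes tested) and 1 lower. NFE2L1 had 270 and 275 CPM in shCon and 245 and 265 CPM in shUBXN1, with a log2 fold change of -0.097 that did not pass (adjusted p = 0.293). Its relative NFE2L2 rose by 0.23 (adjusted p = 0.029). The small Maf genes, whose products pair with both factors on antioxidant response elements, rose more. MAFG went from 21.0 and 15.1 CPM to 64.1 and 67.6 CPM (log2 fold change 1.86, adjusted p = 1.48e-08), MAFF rose by 1.45 and MAFK by 0.66. NGLY1, the enzyme that deglycosylates NFE2L1 during its activation, fell by 0.64 (adjusted p = 7.53e-05).

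**Figure D4:**
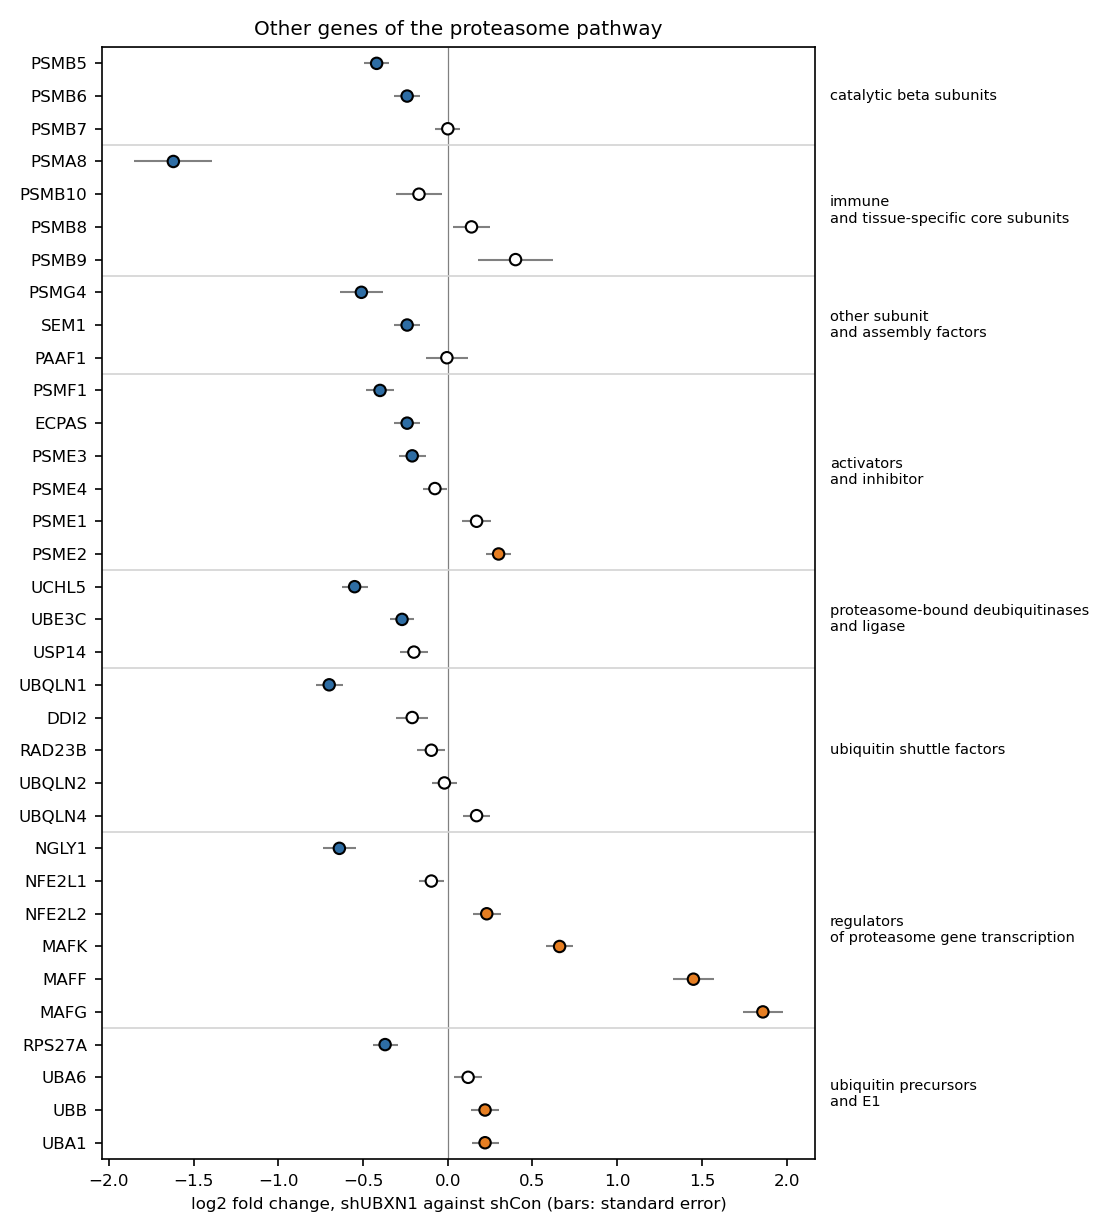
The log2 fold change, shUBXN1 against shCon, of the 34 tested pathway genes outside the 36 members, by role; bars are standard errors (n = 2 libraries a group). Blue symbols were called lower, orange symbols higher and open symbols not called. PSMA8 (-1.62) and MAFG (1.86) mark the ends.

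Falls of this kind were not particular to the proteasome. Of all genes tested 28.2% were called lower (median log2 fold change 0.016), and of those of at least 5 log2 CPM 42.2% (median -0.10). The COP9 signalosome, whose subunits resemble those of the lid, had 7 of 9 genes called lower and a median log2 fold change of -0.40, from -1.74 for COPS7A to -0.075 for COPS2. The translation initiation factor eIF3, the other relative of the lid, had 11 of 13 genes called lower and a median of -0.42, from -0.79 for EIF3F to -0.081 for EIF3L. All 8 genes of the CCT chaperonin, a folding complex, were called lower, with a median of -0.50, from -0.75 for CCT6A to -0.21 for CCT7. The median of the proteasome members, -0.26, was thus nearer to 0 than that of each of these complexes. The differences between complexes were not tested.

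**Figure D5:**
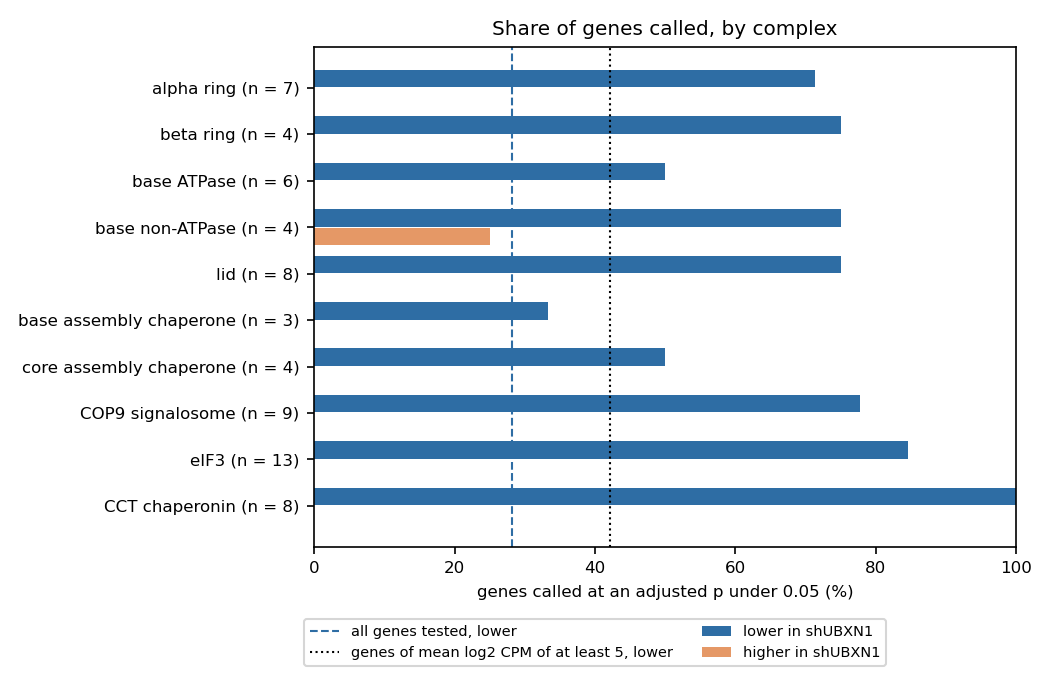
Share of genes called lower (blue) and higher (orange) in shUBXN1 at an adjusted p under 0.05, in percent, for the 7 proteasome role groups and the other complexes, with the number of genes in brackets. The dashed line is the share called lower among all genes tested (28.2%) and the dotted line that among genes of at least 5 log2 CPM (42.2%). Of the groups drawn, a called rise appears only among the base non-ATPase genes, where PSMD2 is 1 of 4.

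Overlapping genes and copies bear on some members, because strandedness of the counting is not given in the sources used here. On GENCODE's GRCh38 annotation 21 members overlap no other gene, and of these 13 were called lower and 1 higher, with a median log2 fold change of -0.22. In 8 members at least 10% of exon bases overlap another gene's exons. For ADRM1 (chr20:62302093-62308862) 17.2% overlap LAMA5 on the opposite strand, which rose from 234 and 208 CPM to 477 and 414 CPM. For PSMA1 (chr11:14504874-14643635) 26.7% overlap the same-strand gene model ENSG00000256206, at 8.33 and 9.83 CPM in shCon and 5.98 and 7.09 CPM in shUBXN1. PSMC1 overlaps NRDE2 on the opposite strand over 76.1% of its exon bases, and NRDE2 stood at 14.5 to 16.9 CPM. PSMD7 overlaps an antisense transcript, ENSG00000259972, over 31.2%, and that transcript stood at 3.34 to 8.24 CPM. PSMC6 and PSMD2 overlap no other gene. Annotated pseudogenes exist for 16 members, but only those of PSMC1 and PSMD10 took more than 1% of their parent's count. With pseudogene counts added, the log2 ratio was -0.20 for PSMC1 and -0.24 for PSMD10.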

How the data were processed

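Paired-end libraries were aligned with Hisat2 according to the study's methods, which name GRCh38, whereas the submitters' processing notes name GRCh37, HISAT2 2.0.4 and StringTie 1.3.0. The counting tool is not given in the sources used here. The authors deposited expected counts per Ensembl gene for the 4 libraries, with fractional values, and a gene length. Identifiers were matched to GENCODE symbols (61369 of 61541, 99.7%).

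Expected counts were rounded and scaled by TMM, low genes were removed by filterByExpr, and shUBXN1 was compared with shCon by edgeR's quasi-likelihood test (edgeR 4.0.16, R 4.3.3, two-sided) with Benjamini-Hochberg adjustment over the 16863 genes tested. The study's methods name limma, which was run as an alternative (limma 3.58.1), as was DESeq2 1.42.0. SEs were derived from each log2 fold change and the F statistic of its test. TPM was computed from the deposited counts and lengths, so comparisons between genes depend on those lengths. The biological coefficient of variation was 0.0711. The code was tested on simulated data. Replicates differed by more than counting noise (chi-square per degree of freedom 3.75 in shCon and 8.34 in shUBXN1).

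Values in all 4 libraries are given for the lowest and highest log2 fold change of each of 7 role groups, for members called higher or past the study thresholds, and for the highest and lowest TPM; values of other genes were added after they were seen. Members and lists were chosen with earlier results of these data known, so no adjusted p over a list alone is given. Some genes of the pathway and marker lists are not reported here and were left out of the list counts. The alternatives were other scaling, filters and tools, a GC correction, a replicate block, a smaller fold threshold and leaving out each library.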

Additional observations from a re-analysis of the deposited data

How the results depend on the processing

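No called result changed direction under an alternative, while PSMA4, PSMB4, PSMC2, PSMC4, PSMD5 and POMP, none of them called with all 4 libraries, changed sign under at least 1 alternative. Leaving out each library in turn gave 14 to 28 members called lower (14 without shCon replicate 2), while the share of all genes called lower ran from 20.9% to 28.7%, with 1 to 2 members called higher, and medians of -0.33 to -0.21 for the members, -0.48 to -0.35 for the alpha ring, -0.32 to -0.19 for the beta ring, -0.32 to -0.21 for the base and -0.38 to -0.23 for the lid. UBXN1 ranged from -2.13 to -1.94. PSMD8 made 2 members called higher under at least 10 counts in every library, limma on log2(TPM + 1) and total count scaling. Total count scaling moved the medians to -0.17 (members), -0.32 (alpha ring), -0.17 (beta ring), -0.17 (base) and -0.22 (lid), and that of all genes to 0.10, so the members stayed 0.27 below it, and 18 were called lower (23.5% of all genes). Limma on log2(TPM + 1) gave a members' median of -0.19, against 0.057 for all genes, so the members stayed 0.25 below it. With the GC trend removed 1 member, ADRM1 (-1.07), passed the study thresholds, and the cause of this change was not tested. Lowering the fold threshold to 1.5, which admits smaller changes, let 6 members pass. At the 2-fold threshold 17.9% of all genes tested already passed, and their share at 1.5-fold was not computed. Of the 24 called members, 15 were called under every alternative.

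The labels do not say whether libraries with the same replicate number are paired. The correlation of same-numbered deviations was 0.0393, which cannot settle this with 2 libraries a group. With the replicate block, 23 members were called lower and 1 higher, the members' median was -0.26, and over all genes 5023 were lower and 5000 higher, against 4751 and 4727 without it. With 2 libraries a group, small changes such as those of PSMC1, PSMA2 and PSMD10 lie at the limit of what could be called.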

Other observations

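Correlations of the log2 fold change with gene properties across the 36 members are given as descriptions, because the genes share libraries and depth. Pearson's r with GC content of the longest transcript was 0.14 (Spearman's rho 0.24), with the log2 of the deposited length 0.20 (rho 0.19) and with log2 TPM in shCon 0.041 (rho -0.016). Without PSMD2 the values of r were 0.05, 0.13 and -0.047 over 35 members.

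On the TPM scale, PSMA4, PSMB4 and PSMC4 separated upward in shUBXN1, whereas their groups overlapped in CPM. The ratio of PSMB4 to PSMB2 in TPM was 13.1 and 12.3 in shCon and 16.3 and 15.3 in shUBXN1, and that of PSMA7 to PSMA5 was 6.55 and 6.90 in shCon and 8.65 and 8.97 in shUBXN1.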
